A study of Mus musculus with 12 samples.

Results

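The 37 genes described here mark microglia, the resident macrophages of the brain, or macrophages in general. They were taken as a fixed list of symbols, and all 37 were found among the 48709 gene identifiers of the count tables, 48349 of which carry a symbol. The cells came from hypothalami of C57BL/6 mouse embryos on embryonic day 18 (E18). They were dissociated, given a virus at a multiplicity of infection (MOI) of 10, and kept for a week as neurospheres, floating clusters of neural cells, with basic fibroblast growth factor (bFGF, 10 ng/ml) from the second day. They were then sorted by reporter, and the RNA of each sorted fraction was sequenced. The 4 groups, with 3 libraries each, shared strain, age, medium and culture time. mCherry-positive and mCherry-negative cells came from cultures given an adeno-associated virus (AAV) with a reporter for hypocretin (Hcrt) cells. EGFP-positive and EGFP-negative cells came from cultures given a lentivirus with a reporter for cells that make melanin-concentrating hormone (MCH, gene Pmch). cDNA was made from 0.8 ng of RNA in the mCherry sort and from 2 ng in the EGFP sort. The labels name neither the promoter of a reporter nor any microglial marker in the sorts, and they do not say whether the replicates of a group were separate cultures, so a p-value here speaks of how far these samples spread, and that spread could be technical.

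Microglia descend from yolk sac progenitors and enter the brain early in development, whereas neurons, astrocytes and oligodendrocytes arise from the neural tube. They depend on signalling through the receptor Csf1r and on the transcription factors PU.1 (gene Spi1) and Irf8, and they carry surface receptors such as Cx3cr1 and P2ry12. In the brain they are the main source of C1q, the first component of the classical complement pathway, and in the hypothalamus as elsewhere they clear debris and survey their surroundings. Macrophages at the borders of the brain share much of this programme and add genes such as Mrc1 and Pf4.

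PU.1 binds DNA around a purine-rich core, and promoters of members whose levels moved together are shown for this reason. Of the 37 members, 27 had a promoter of 300 bases (250 before to 50 after the start of transcription) in the RefSeq table of GRCm38.p6, 32 promoters in all. The letters GAGGAA, on either strand, stood in 18 of the 32 promoters (56.3%), against 9289 of 32851 promoters of all genes (28.3%). A longer pattern, the composite PU.1 and IRF motif, joins a PU.1 core to a site for IRF factors. Each pattern was searched by itself, and a stretch that fits both was counted under both. The longer pattern stood in 2 of the 32 (6.25%), those of Cd68 and Cybb, against 2.72% of all promoters. The first 4 promoters, with GAGGAA or its reverse complement, in capitals, belong to genes whose levels were lower in EGFP-positive cells (C1qb, C1qc, Trem2, Aif1). P2ry12, which was higher there, holds no match and is shown beside them. Cx3cr1, Lyz2, Fcer1g, Mpeg1 and Ly86, which were called lower there, hold no match either and are not shown. All promoters shown are printed 5′ to 3′ on the strand of the gene.
C1qb, chr4:136886151-136886450, minus strand, GRCm38.p6: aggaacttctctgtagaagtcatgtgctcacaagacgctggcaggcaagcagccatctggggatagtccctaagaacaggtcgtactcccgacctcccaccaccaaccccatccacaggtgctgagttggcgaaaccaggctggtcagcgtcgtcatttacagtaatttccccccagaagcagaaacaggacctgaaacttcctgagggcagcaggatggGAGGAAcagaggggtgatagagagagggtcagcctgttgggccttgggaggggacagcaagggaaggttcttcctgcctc
C1qc, chr4:136892865-136893164, minus strand, GRCm38.p6: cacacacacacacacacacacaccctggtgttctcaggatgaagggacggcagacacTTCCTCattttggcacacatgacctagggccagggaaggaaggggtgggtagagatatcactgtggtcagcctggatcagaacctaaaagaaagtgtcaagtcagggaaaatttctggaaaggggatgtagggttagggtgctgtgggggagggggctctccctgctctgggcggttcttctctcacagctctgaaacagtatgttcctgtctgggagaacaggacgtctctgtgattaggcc
Trem2, chr17:48346151-48346450, plus strand, GRCm38.p6: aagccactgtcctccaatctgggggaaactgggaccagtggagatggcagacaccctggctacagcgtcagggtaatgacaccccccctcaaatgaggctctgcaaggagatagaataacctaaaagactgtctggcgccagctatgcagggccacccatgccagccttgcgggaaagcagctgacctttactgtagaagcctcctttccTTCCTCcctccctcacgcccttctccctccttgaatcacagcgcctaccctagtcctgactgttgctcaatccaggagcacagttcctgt
Aif1, chr17:35176003-35176302, minus strand, GRCm38.p6: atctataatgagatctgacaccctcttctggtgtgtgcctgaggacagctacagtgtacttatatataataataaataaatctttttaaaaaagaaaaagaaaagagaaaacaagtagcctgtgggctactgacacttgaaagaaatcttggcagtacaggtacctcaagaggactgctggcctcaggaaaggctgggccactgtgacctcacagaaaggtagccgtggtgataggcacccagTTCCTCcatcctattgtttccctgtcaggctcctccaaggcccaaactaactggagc
P2ry12, chr3:59262936-59263235, minus strand, GRCm38.p6: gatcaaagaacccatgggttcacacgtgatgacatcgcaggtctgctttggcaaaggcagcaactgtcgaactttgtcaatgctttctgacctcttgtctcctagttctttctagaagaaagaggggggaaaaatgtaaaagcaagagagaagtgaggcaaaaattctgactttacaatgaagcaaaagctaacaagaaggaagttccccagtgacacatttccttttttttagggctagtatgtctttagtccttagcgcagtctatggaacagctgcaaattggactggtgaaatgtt
GAGGAA stood in promoters of 9 of the 14 genes called lower in EGFP-positive cells that had a promoter in the table, and of 8 of the 13 other members that had one. A match of letters is a description of the sequence and does not show that the factor was bound.

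Libraries held 16.3 to 32.9 M reads in genes, so 1 read equals 0.0304 to 0.0614 CPM (the count scaled to the reads in genes of its library), and a count of 0 allows a level of up to 0.0912 to 0.184 CPM. Both these limits and the intervals given further on include nothing but counting error, since reads carried no molecular identifiers. Pmch stood at 17.2 ± 0.769 CPM in EGFP-positive and 4.68 ± 0.587 CPM in EGFP-negative cells (SD, n = 3), and Hcrt had 21 reads in mCherry-positive and 11 reads in mCherry-negative libraries. A pair of mCherry libraries stood apart from the others in the level of the members. In mCherry-positive replicate 1 the members summed to 7.36 times the mean of replicates 2 and 3, and in mCherry-negative replicate 3 to 3.21 times the mean of replicates 1 and 2. The same mCherry-positive replicate 1 held 9.68 CPM of 10 pituitary marker genes, against 2337 and 5554 CPM in replicates 2 and 3. mCherry-negative replicate 1 was low in them too, at 7.67 CPM, against 224 and 180 CPM in mCherry-negative replicates 2 and 3.

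Together the 37 members were a small part of the RNA in every group. Their summed level was 2339, 333 and 303 CPM in mCherry-positive libraries, against 178, 243 and 675 CPM in mCherry-negative libraries. It was 134, 138 and 139 CPM in EGFP-positive libraries, against 234, 219 and 208 CPM in EGFP-negative libraries. The mCherry groups overlapped, whereas the EGFP groups did not and their replicates were close to each other. The highest of the 12 libraries was 17.5 times the lowest. In bulk RNA of this kind, fewer microglia and less of these transcripts per cell cannot be told apart.

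The sum hides how unequal the members were. Per kilobase of all exons of the gene, merged, and over all 12 libraries, Lyz2, the lysozyme of macrophages, was the highest at 81.5 CPM per kb. Next came C1qb at 30.6, Cyba, a subunit of the phagocyte oxidase, at 19.6, C1qa at 16.1 and Tyrobp, an adaptor of activating receptors, at 15.6. The merged exons are not the transcript length used further on (1931 and 1203 bases for C1qc), and the order depends on the length taken. The order differed between groups, and mCherry-positive replicate 1 raises the pooled means. By group mean per kb, mCherry-positive cells had Lyz2 (207), C1qb (80.5), C1qa (45.8) and Ctss (43.9 CPM per kb) at the top, and mCherry-negative cells Lyz2 (85.8), C1qb (27.7) and Tyrobp (25.2 CPM per kb). At the other end Siglech, a sialic acid-binding lectin of microglia, had 1 read in all 12 libraries, and the mannose receptor Mrc1 had 125. In EGFP-positive cells Cyba (21.7 CPM per kb), Sall1 (12.4), Lyz2 (7.73) and Cd14 (6.62) were the highest by group mean per kb, and in EGFP-negative cells Lyz2 (25.4), Cyba (17.6), C1qb (12.3) and Sall1 (9.67). Sall1, Cyba, Cd14, P2ry12, Olfml3 and Irf8, 6 members picked after their values were seen for being least low in EGFP-positive cells, summed to 109, 115 and 117 CPM in EGFP-positive and to 93.4, 94.6 and 91.4 CPM in EGFP-negative libraries. The other 31 members summed to 24.4, 22.6 and 22.2 CPM in EGFP-positive and to 141, 124 and 117 CPM in EGFP-negative libraries. That the remainder is low in EGFP-positive cells follows in part from how the 6 were picked, so these sums are a description only.

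**Figure D1:**
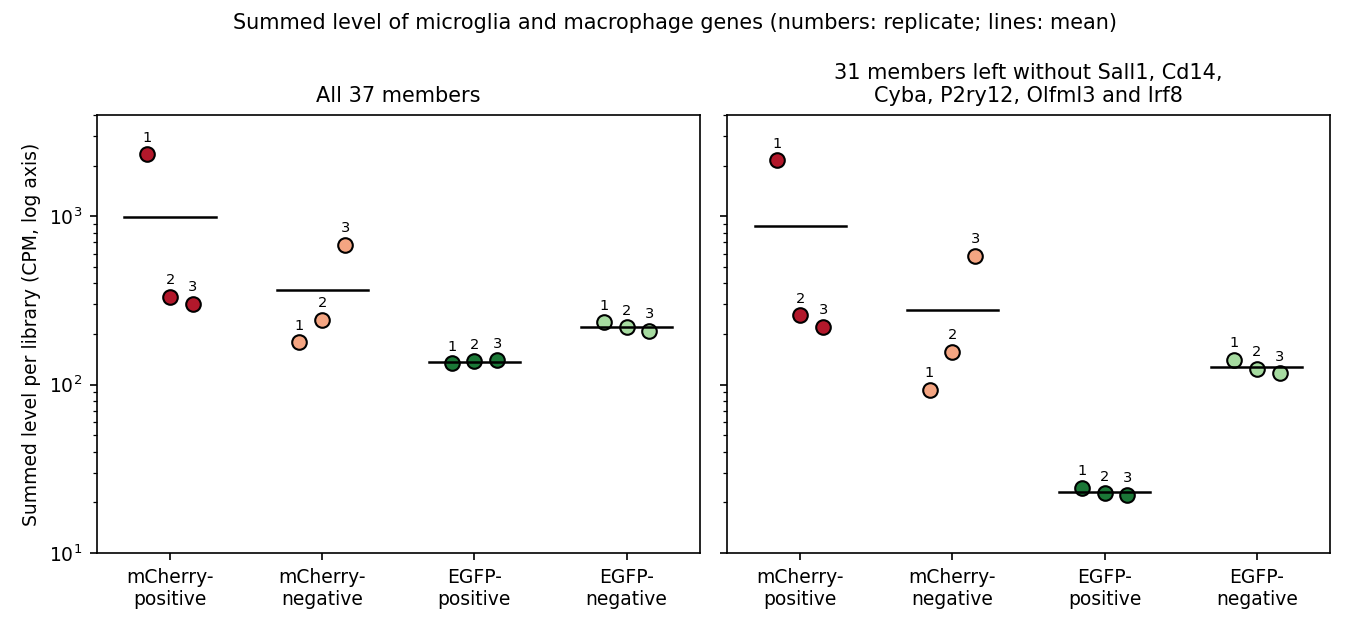
Summed level of all 37 members (left) and of the 31 members left after the 6 picked for being least low in EGFP-positive cells were taken out (right) in each of the 12 libraries, in CPM on a log axis, with the replicate number at each point and the group mean as a line. mCherry-positive replicate 1 (2339 CPM) and mCherry-negative replicate 3 (675 CPM) lie above the other libraries, and on the right the EGFP-positive libraries are at 22.2 to 24.4 CPM, which the choice of the 6 in part fixes.

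In the EGFP comparison most members were lower in EGFP-positive cells than in EGFP-negative cells. Of the 31 members tested, 20 fell, where 7.07% of 16326 genes were called lower, and 2 rose, P2ry12 and Cd14, where 8.99% were called higher (edgeR's quasi-likelihood test, Benjamini-Hochberg adjusted p under 0.05). The median log2 fold change of the 31 was -2.71, against -0.01 over all genes tested, and setting the member without a read in EGFP-positive cells to its bound left it at -2.71. In 26 of the 31 all EGFP-positive libraries lay below all EGFP-negative libraries, as did 24.5% of all genes tested, and in 2 they lay above, as did 13.4%. A gene enters the test through the group in which it has reads, so these counts describe the members tested and not all 37. In 1 fit of all 12 libraries, which takes 1 spread for both sorts, 4 members were called lower (Cx3cr1, Fcgr3, Spi1 and Tmem119) and 0 higher. Of the 18063 genes tested in it, 343 were called lower and 458 higher. Single EGFP libraries decided 4 of the lower calls. Trem2 and Mpeg1 were lost without EGFP-positive replicate 2 or EGFP-negative replicate 1, Cd53 without EGFP-positive replicate 2 or EGFP-negative replicate 2, and Ly86 without EGFP-positive replicate 2, EGFP-negative replicate 2 or EGFP-negative replicate 3, at adjusted p between 0.0514 and 0.0778 by edgeR's quasi-likelihood test.

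**Figure D2:**
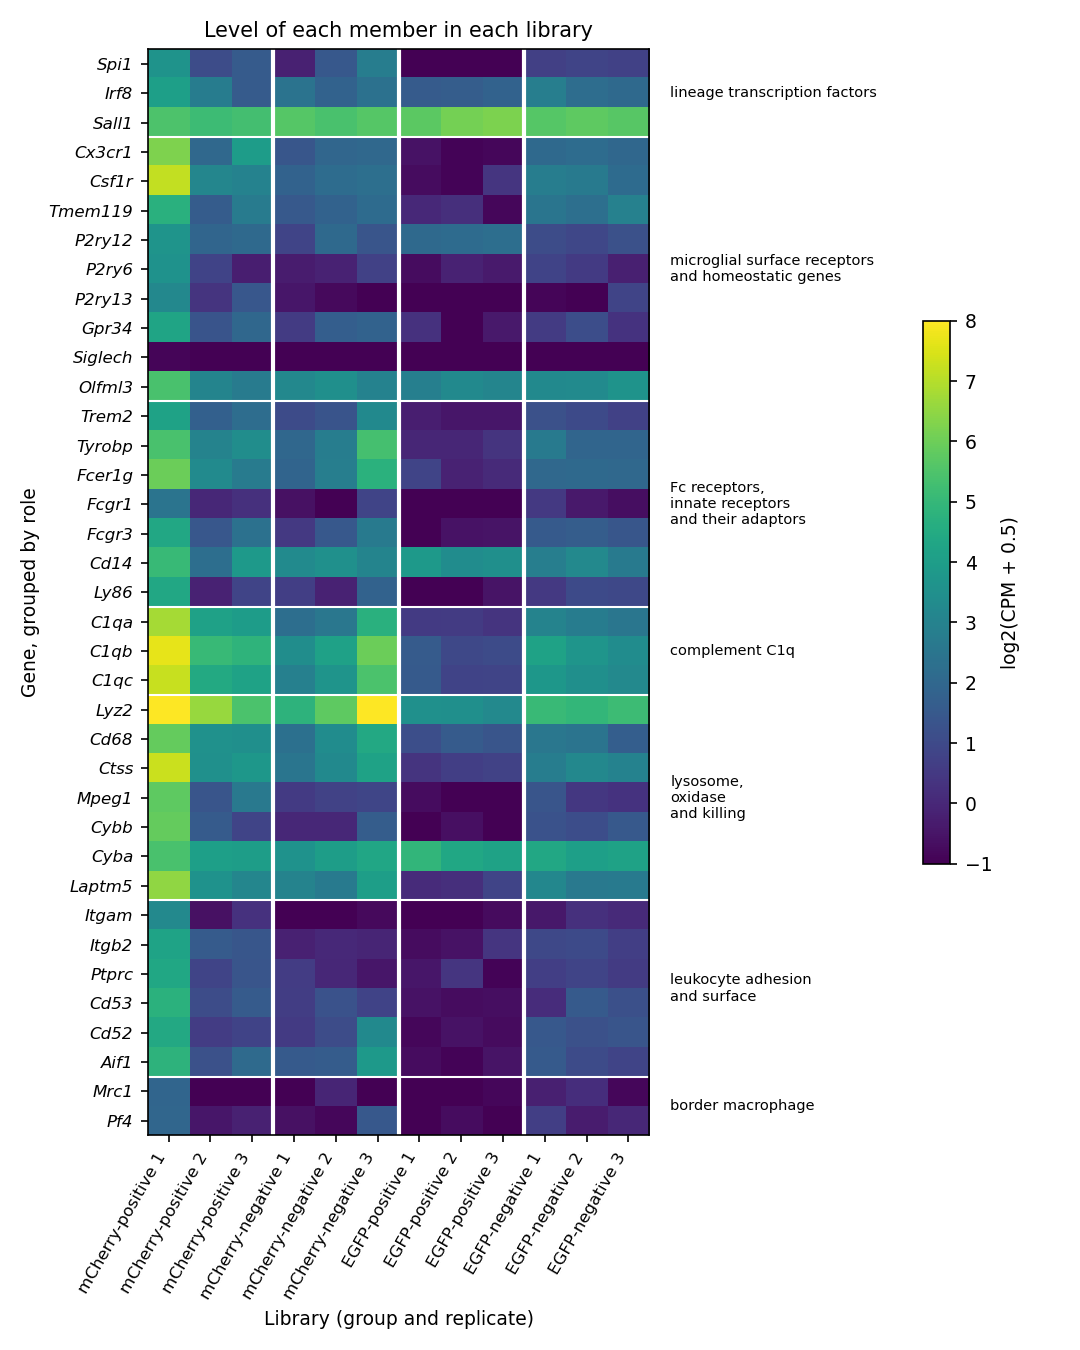
Level of each of the 37 members (lines, grouped by role) in each of the 12 libraries (columns) as log2(CPM + 0.5), with colours ending at 8, which Lyz2 passes in 2 libraries. The 3 EGFP-positive columns are the darkest block for most genes, while Sall1, Cyba, Cd14, P2ry12 and Olfml3 stay lit there, and the first column, mCherry-positive replicate 1, is the brightest.

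The 3 chains of C1q, which assemble into 1 secreted protein, lie side by side on chromosome 4 between positions 136880129 and 136898803 (GRCm38) and fell to a similar extent. C1qb had 2.53, 1.45 and 1.58 CPM in EGFP-positive libraries, against 17.7, 12.4 and 10.0 CPM in EGFP-negative libraries (log2 fold change -2.78 ± 0.30 (SE), adjusted p 6.24e-04). C1qa had 0.940, 0.966 and 0.776 CPM in EGFP-positive and 7.70, 6.39 and 5.34 CPM in EGFP-negative libraries (-2.75 ± 0.28 (SE), adjusted p 4.71e-04). For C1qc the values were 2.41, 1.26 and 1.29 CPM in EGFP-positive and 13.05, 10.8 and 8.90 CPM in EGFP-negative libraries (-2.66 ± 0.30 (SE), adjusted p 7.15e-04). No EGFP-positive library reached the lowest EGFP-negative library in any of the chains.

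Of the 9 surface receptors and homeostatic genes 7 were tested, and Cx3cr1, Csf1r and Tmem119 fell. Cx3cr1, the receptor for the neuronal chemokine fractalkine, had 0.176, 0.0372 and 0.0647 CPM in EGFP-positive libraries, which is 6 reads in all, against 3.69, 4.03 and 3.50 CPM in EGFP-negative libraries. Its log2 fold change of -5.32 ± 0.50 (SE), adjusted p 3.71e-04 had the smallest adjusted p of the members, and the ratio of the summed counts, EGFP-positive over EGFP-negative, was 0.0212 with a 95% interval of 0.00772 to 0.0469. Csf1r, the receptor microglia need to survive, had 0.117, 0.0372 and 0.809 CPM in EGFP-positive and 6.49, 6.05 and 3.93 CPM in EGFP-negative libraries (-3.83 ± 0.69 (SE), adjusted p 0.00604). Tmem119, a membrane protein that sets microglia apart from other macrophages, had 0.529, 0.669 and 0.0647 CPM in EGFP-positive and 5.11, 4.34 and 7.30 CPM in EGFP-negative libraries (-3.66 ± 0.57 (SE), adjusted p 0.00327). The groups did not overlap in these receptors, although 1 EGFP-positive library carried most of the Csf1r reads of its group. The UDP receptor P2ry6 (-1.49 ± 0.63 SE) and the lysophospholipid receptor Gpr34 (-1.84 ± 0.88 SE) did not pass the test, nor did the secreted protein Olfml3 (-0.24 ± 0.20 SE). P2ry13 had no read in EGFP-positive libraries and 22 in EGFP-negative libraries, 21 of them in replicate 3, and was too low for the test.

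Of the lineage factors Spi1, the gene of PU.1, had no read in any EGFP-positive library, against 1.13, 1.28 and 1.17 CPM in EGFP-negative libraries, which is 80 reads. Taking a floor of 3 counts over the EGFP-positive group, Spi1 was at least 29.9-fold lower there, and edgeR's quasi-likelihood test gave it an adjusted p of 0.00263. Irf8, which works with PU.1 in myeloid cells, had 2.53, 2.64 and 3.04 CPM in EGFP-positive and 6.69, 4.19 and 3.68 CPM in EGFP-negative libraries and was not called (-0.72 ± 0.29 (SE), adjusted p 0.126). Sall1, a zinc-finger factor that keeps microglial identity and is also made by neural progenitors, had 52.5, 69.5 and 73.9 CPM in EGFP-positive and 48.7, 54.0 and 50.1 CPM in EGFP-negative libraries (0.47 ± 0.16 (SE), adjusted p 0.0721). Its groups overlapped, with EGFP-positive replicate 1 inside the range of the EGFP-negative libraries.

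Among the Fc receptors, innate receptors and their adaptors, 5 of 6 tested genes fell, both adaptors among them. Tyrobp, the adaptor of Trem2, had 0.470, 0.483 and 0.776 CPM in EGFP-positive and 5.88, 3.33 and 3.31 CPM in EGFP-negative libraries (-2.71 ± 0.39 (SE), adjusted p 0.00241). Trem2 itself, a lipid-sensing receptor, fell by 2.43 ± 0.48 (SE) on the log2 scale, Fcer1g, the signalling chain of Fc receptors, by 2.24 ± 0.43 (SE), Fcgr3, a receptor for IgG, by 3.94 ± 0.61 (SE) and Ly86, a partner of a Toll-like receptor relative, by 3.87 ± 0.88 (SE). Fcgr1, the high-affinity IgG receptor, had no read in EGFP-positive and 31 reads in EGFP-negative libraries. Cd14, the co-receptor for bacterial lipopolysaccharide, went the other way, with 13.9, 10.0 and 10.5 CPM in EGFP-positive and 6.69, 9.03 and 6.08 CPM in EGFP-negative libraries (0.75 ± 0.22 (SE), adjusted p 0.0441). All EGFP-positive libraries lay above all EGFP-negative libraries in Cd14, but the call was lost with plain library sizes (adjusted p 0.0730), which shift the median of all genes to -0.12. It was also lost without EGFP-positive replicate 2 (adjusted p 0.0855), EGFP-negative replicate 1 (0.153), EGFP-negative replicate 2 (0.0511) and EGFP-negative replicate 3 (0.155).

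Of the 7 lysosome, oxidase and killing genes 5 fell. Lyz2 had 10.9, 10.6 and 9.02 CPM in EGFP-positive and 34.1, 30.9 and 35.2 CPM in EGFP-negative libraries (-1.61 ± 0.15 (SE), adjusted p 3.74e-04), a smaller change than in most called members. Ctss, a protease of the antigen-processing pathway, had 0.763, 1.08 and 1.23 CPM in EGFP-positive and 6.49, 8.76 and 7.43 CPM in EGFP-negative libraries (-2.74 ± 0.28 (SE), adjusted p 4.83e-04). Laptm5, a lysosomal membrane protein of blood cells, had 0.587, 0.669 and 1.29 CPM in EGFP-positive and 8.39, 5.74 and 5.89 CPM in EGFP-negative libraries (-2.81 ± 0.36 (SE), adjusted p 0.00123). The groups were apart in each. The pore-forming protein Mpeg1 was down to 2 reads over the EGFP-positive libraries, against 87 over the EGFP-negative ones (ratio 0.0205, 95% interval 0.00244 to 0.0763). The catalytic oxidase subunit Cybb was down to 4 reads over the EGFP-positive libraries, against 128 over the EGFP-negative ones (-4.97 ± 0.83 (SE), adjusted p 0.00451), while its partner Cyba, which many cell types make, had 29.9, 20.3 and 17.5 CPM in EGFP-positive and 20.4, 16.6 and 17.8 CPM in EGFP-negative libraries and was not called (0.41 ± 0.21 (SE), adjusted p 0.224). The lysosomal protein Cd68 was lower in all EGFP-positive libraries, at 1.76, 2.53 and 2.10 CPM against 5.47, 5.04 and 2.76 CPM in EGFP-negative libraries, and just missed the threshold (-0.94 ± 0.32 (SE), adjusted p 0.0772).

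Of the 6 leukocyte adhesion and surface genes Cd52, Aif1 and Cd53 fell. Cd52, a small surface glycoprotein of leukocytes, had 0.0587, 0.186 and 0.0970 CPM in EGFP-positive and 2.31, 1.86 and 2.09 CPM in EGFP-negative libraries (-3.97 ± 0.52 (SE), adjusted p 0.00155). Aif1, the calcium-binding protein known as Iba1, had 0.117, 0.0372 and 0.194 CPM in EGFP-positive and 2.43, 1.59 and 1.29 CPM in EGFP-negative libraries, and the tetraspanin Cd53 0.176, 0.112 and 0.129 CPM in EGFP-positive and 0.608, 2.40 and 1.78 CPM in EGFP-negative libraries. None of these genes overlapped between the groups. The integrin chain Itgb2 (-1.66 ± 0.65 SE) and the leukocyte phosphatase Ptprc (-1.52 ± 0.78 SE) were not called, and the integrin Itgam was read 3 times in EGFP-positive cells, against 33 times in EGFP-negative cells. Of the border macrophage genes, Mrc1 had 2 and 26 reads and the chemokine Pf4 3 and 43 reads in EGFP-positive and EGFP-negative libraries, too few for the test.

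P2ry12, the ADP receptor that guides microglial processes, was the clearest exception. It had 3.70, 3.90 and 4.30 CPM in EGFP-positive libraries, against 1.62, 1.40 and 1.84 CPM in EGFP-negative libraries (1.41 ± 0.27 (SE), adjusted p 0.00793). Every EGFP-positive library lay above every EGFP-negative library. Its genomic neighbour P2ry13 lies 5389 bases away and had no read in EGFP-positive cells. The exons of both genes lie inside the span of Med12l, a Mediator gene on the opposite strand. The strand setting of the counting is not given in the sources used here, so reads of Med12l introns and of P2ry12 cannot be told apart. Med12l itself was at 7.17 CPM in EGFP-positive and 9.47 CPM in EGFP-negative cells and was not called (log2 fold change -0.28 ± 0.23 SE, adjusted p 0.460 by edgeR's quasi-likelihood test).

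**Figure D3:**
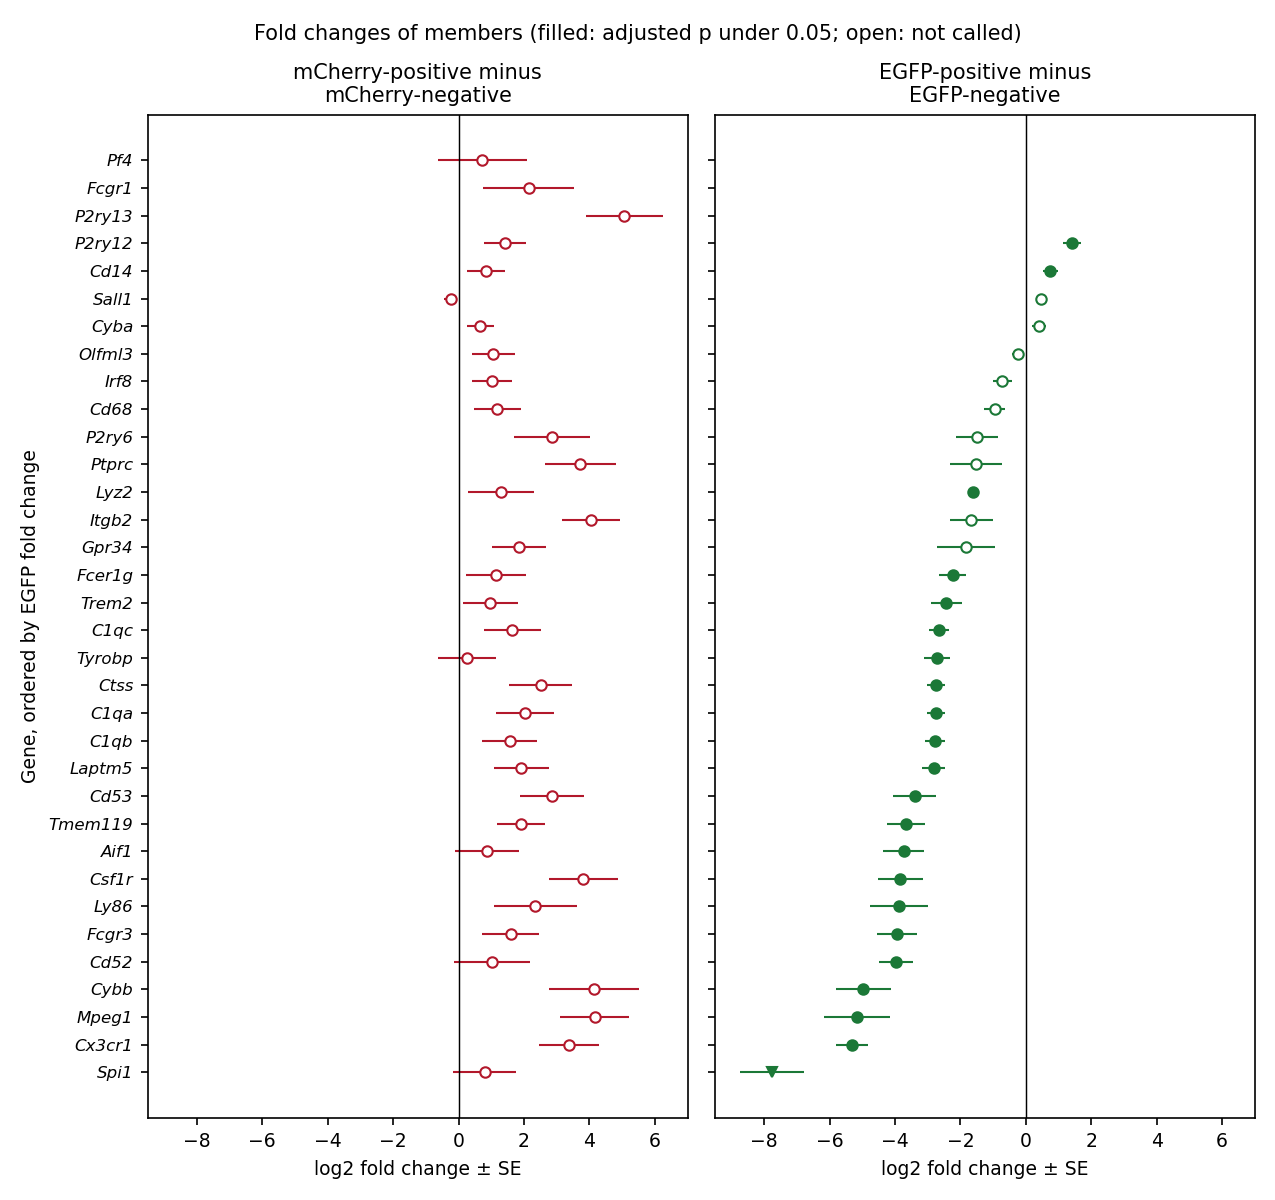
Log2 fold change ± SE of each tested member in the mCherry comparison (left) and the EGFP comparison (right), filled where the adjusted p was under 0.05. On the right 20 members are filled below 0 and P2ry12 and Cd14 above it, on the left 33 of 34 points lie above 0 and 0 are filled. The triangle marks Spi1, which has no read in EGFP-positive libraries, so that its position depends on the model and is no bound.

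In the mCherry comparison the members were higher on average in mCherry-positive cells, but the groups overlapped for most of them and none of 34 tested members was called. The count was 0 higher, where 0.541% of 17369 genes were called higher, and 0 lower, where 0.656% were called lower, by edgeR's quasi-likelihood test. By this test 14 of the 34 members had an unadjusted p under 0.05, as did 3233 of the 17369 genes. DESeq2 called 5 members higher and limma-voom 0, where 885 and 100 of 17369 genes were called higher. The log2 fold change was positive for 33 of the 34, with a median of 1.62, against 0.02 over all genes. Without mCherry-positive replicate 1 the median was 0.017 with 17 positive values, and the log2 ratio of the summed level, 1.44 with all libraries, became -0.20. With mCherry-negative replicate 3 left out as well, an alternative chosen after the data were seen, the median was 0.68 and the log2 ratio of the sum 0.59. In that fit 1 member was called higher, where 239 of 17788 genes were. By role, the summed level of the 9 surface receptors and homeostatic genes did not overlap between the mCherry groups. It was 338, 29.6 and 44.7 CPM in mCherry-positive and 19.2, 28.1 and 25.8 CPM in mCherry-negative libraries. The sums of the other roles overlapped. The sum of 40 further microglia genes outside the members did not, at 1142, 223 and 269 CPM in mCherry-positive and 133, 165 and 216 CPM in mCherry-negative libraries.

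Itgb2 came closest to the threshold. It had 18.1, 2.53 and 2.16 CPM in mCherry-positive libraries, against 0.395, 0.522 and 0.461 CPM in mCherry-negative libraries (4.05 ± 0.90 (SE), adjusted p 0.0635). All 3 positive libraries were above all 3 negative ones. This held for 5 of the 34 tested members (Itgb2, P2ry13, Mpeg1, Csf1r and Ptprc), or 14.7%, where 12.7% of all genes tested lay wholly higher, and for 0 members wholly lower, where 12.7% did. P2ry13, an ADP receptor, had 8.66, 0.791 and 2.22 CPM in mCherry-positive and 0.231, 0.0921 and 0 CPM in mCherry-negative libraries (5.07 ± 1.18 (SE), adjusted p 0.0720). Mpeg1 had 53.8, 2.12 and 5.69 CPM in mCherry-positive and 0.955, 1.197 and 1.34 CPM in mCherry-negative libraries (4.16 ± 1.06 (SE), adjusted p 0.0901). Csf1r had 143, 8.19 and 7.36 CPM in mCherry-positive and 3.06, 4.02 and 4.38 CPM in mCherry-negative libraries (3.82 ± 1.06 (SE), adjusted p 0.108). In each of these, replicate 1 was far above the other positive libraries, which still lay above the negative ones. Without mCherry-positive replicate 1 the log2 fold change was 2.28 ± 0.74 (SE) for Itgb2, 3.65 ± 1.26 (SE) for P2ry13, 1.67 ± 0.63 (SE) for Mpeg1 and 0.97 ± 0.41 (SE) for Csf1r, at adjusted p between 0.179 and 0.299 by edgeR's quasi-likelihood test. Ptprc, with 19.8, 1.30 and 2.07 CPM in mCherry-positive and 1.02, 0.491 and 0.230 CPM in mCherry-negative libraries, followed the same order (3.73 ± 1.07 (SE), adjusted p 0.118; 1.47 ± 0.88 SE without replicate 1).

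Cx3cr1 had 76.1, 3.57 and 15.1 CPM in mCherry-positive and 2.17, 3.44 and 3.60 CPM in mCherry-negative libraries, and replicate 2 fell inside the negative range (3.38 ± 0.91 (SE), adjusted p 0.101). Cybb had 57.8, 2.499 and 1.28 CPM in mCherry-positive and 0.494, 0.491 and 2.67 CPM in mCherry-negative libraries (4.14 ± 1.38 (SE), adjusted p 0.157), and Cd53 26.4, 1.61 and 2.46 CPM in mCherry-positive and 1.05, 1.90 and 1.24 CPM in mCherry-negative libraries (2.87 ± 0.98 (SE), adjusted p 0.165). Both overlapped between groups. Without mCherry-positive replicate 1 the log2 fold change was 1.53 ± 0.58 (SE) for Cx3cr1, 0.60 ± 0.91 (SE) for Cybb and 0.47 ± 0.67 (SE) for Cd53. C1qb and Lyz2, the members with the most reads per kilobase, overlapped widely. C1qb had 201, 33.2 and 28.7 CPM in mCherry-positive and 10.1, 17.4 and 62.9 CPM in mCherry-negative libraries (1.56 ± 0.83 (SE), adjusted p 0.344). Lyz2 had 678, 97.0 and 43.2 CPM in mCherry-positive and 27.4, 53.4 and 258 CPM in mCherry-negative libraries (1.30 ± 1.01 (SE), adjusted p 0.524). Their highest negative library exceeded both lower positive libraries. Tyrobp also overlapped, with 42.2, 7.62 and 10.2 CPM in mCherry-positive and 3.52, 6.51 and 40.5 CPM in mCherry-negative libraries (0.27 ± 0.88 (SE), adjusted p 0.898).

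Other members of the mCherry sort had the same shape. Spi1 had 11.9, 1.61 and 2.46 CPM in mCherry-positive and 0.395, 2.30 and 6.59 CPM in mCherry-negative libraries, and Irf8 16.5, 6.39 and 2.49 CPM in mCherry-positive and 4.91, 3.07 and 4.61 CPM in mCherry-negative libraries. Ctss had 155, 10.9 and 13.04 CPM in mCherry-positive and 5.10, 9.11 and 17.8 CPM in mCherry-negative libraries, and Tmem119 25.6, 2.59 and 6.26 CPM in mCherry-positive and 2.34, 3.04 and 3.92 CPM in mCherry-negative libraries. In all of them replicate 1 of the positive cells was the highest library and the rest overlapped. Sall1 stood outside this pattern, with 44.3, 35.6 and 39.5 CPM in mCherry-positive and 48.7, 42.0 and 48.7 CPM in mCherry-negative libraries (-0.24 ± 0.19 (SE), adjusted p 0.534), the one negative fold change among the 34. Itgam had 245 reads in mCherry-positive libraries, 216 of them in replicate 1, and 2 reads in mCherry-negative libraries, and did not pass the filter of this fit. Of its exonic bases 68.7% also lie in exons of the predicted gene Gm49368, to which 0 reads were assigned, so its count is uncertain. Mrc1 had 82 reads in mCherry-positive replicate 1 and none in the other positive libraries, and the border macrophage chemokine Pf4 was at 3.39, 0.221 and 0.395 CPM in mCherry-positive and 0.165, 0.0614 and 2.26 CPM in mCherry-negative libraries.

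The libraries that stood apart differed in which members were high. mCherry-positive replicate 1 was the highest of the 12 libraries for 36 members, Sall1 being the exception, and mCherry-negative replicate 3 was second highest for 18. In mCherry-negative replicate 3 most of the high members had short transcripts. Among the 35 members with at least 200 reads, the 19 with a transcript under 2000 bases had a median log2 difference of 2.07 from replicates 1 and 2, and 14 of them exceeded 1. The 16 longer members had a median of 0.23, and 4 exceeded 1. Over all genes the medians were 0.21 for 4064 short and -0.11 for 9354 longer genes, and 5.54% of the short and 2.61% of the longer genes exceeded 1. Spearman's rho with length, across genes, which are not independent replicates, was -0.70 for the members and -0.27 for all genes. Tyrobp (564 bases) differed by 2.95, Lyz2 (1316 bases) by 2.74 and Cd52 (514 bases) by 2.44, whereas Cx3cr1 (3753 bases) differed by 0.34, Mpeg1 (4334 bases) by 0.23 and Ptprc (4702 bases) by -0.75. The 4 longer members above 1 were Spi1 (2034 bases, 2.16), Cybb (4752 bases, 1.68), Fcgr1 (2589 bases, 1.64) and Laptm5 (2600 bases, 1.17), and Cd14 (1641 bases, -0.34) and Cd53 (1742 bases, -0.15) were among the short members that were not high. Transcript length is the median over the protein-coding transcripts of the gene in the GENCODE basic set, and differences are in log2(CPM + 0.5).

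In mCherry-positive replicate 1, length made little difference. The short members had a median difference of 2.73 from replicates 2 and 3 and the longer ones 2.62, with a Spearman's rho of 0.19 across the 35 members. Ratios between members within a library also varied, and not by length alone. For every read of C1qb, Csf1r had 0.712 reads in mCherry-positive replicate 1 and 0.247 and 0.256 in replicates 2 and 3, but 0.0696 in mCherry-negative replicate 3, against 0.303 and 0.231 in mCherry-negative replicates 1 and 2. Tyrobp had 0.210, 0.230 and 0.357 reads per C1qb read in mCherry-positive libraries and 0.349, 0.373 and 0.643 in mCherry-negative libraries. The long Cybb went against an order by length, with 0.0425 reads per C1qb read in mCherry-negative replicate 3, against 0.0489 and 0.0282 in replicates 1 and 2. Ctss (1355 bases), which is longer than C1qb (1088 bases), had 0.284 there, against 0.505 and 0.523. C1qc, the neighbour of C1qb, kept a ratio of 0.612 to 0.753 to it over all 6 mCherry libraries. What part RNA quality had in the length pattern was not tested.

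**Figure D4:**
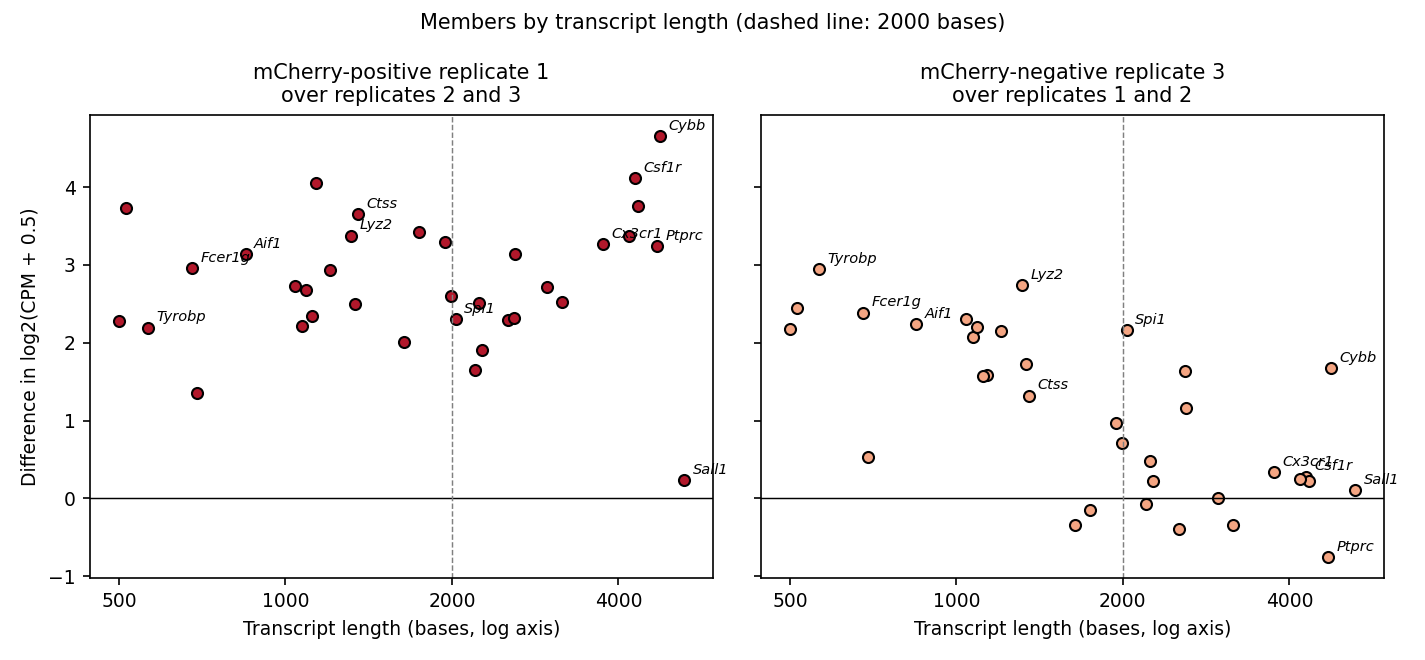
Difference in log2(CPM + 0.5) of each member with at least 200 reads against the length of its transcript in bases (log axis), for mCherry-positive replicate 1 over replicates 2 and 3 (left) and mCherry-negative replicate 3 over replicates 1 and 2 (right). On the left both sides of the dashed line at 2000 bases lie at similar heights (medians 2.73 and 2.62), on the right the short members lie higher (2.07 and 0.23).

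For 10 members the effects of the sorts differed. In 1 fit of all 12 libraries, edgeR's quasi-likelihood test called the mCherry effect minus the EGFP effect higher for 10 of 36 tested members. It called 0 members lower, where 0.886% of 18063 genes were called higher and 0.559% lower. In either direction, 32 of the 36 members had an unadjusted p under 0.05 by this test, as did 2737 of the 18063 genes. DESeq2 and limma-voom also called 0 lower. The 10 were Cx3cr1, Mpeg1, Tmem119, Csf1r, Itgb2, Cd53, Itgam, Cybb, Fcgr3 and Laptm5. The median log2 difference of the 36 was 4.73, against -0.03 over all genes. It was 2.67 without mCherry-positive replicate 1 and 3.65 without both libraries that stood apart. Cx3cr1 differed by 8.68 ± 1.34 (SE, adjusted p 0.0109), Tmem119 by 5.52 ± 1.09 (SE, adjusted p 0.0284) and Laptm5 by 4.71 ± 1.09 (SE, adjusted p 0.0493). Of the C1q chains C1qa came nearest, at 4.75 ± 1.13 (SE, adjusted p 0.0565). For P2ry12 (-0.02 ± 0.70 SE) and Cd14 (0.05 ± 0.71 SE) the fitted difference was near 0 with a wide error. Virus, reporter and RNA input changed together between the sorts and cannot be told apart.

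The count of 10 moved with single libraries. It was 9 without mCherry-positive replicate 1, with 8 genes shared, and 22 without both libraries that stood apart, with all 10 shared. It was 3 without mCherry-negative replicate 1, 1 without mCherry-negative replicate 2, 17 without mCherry-negative replicate 3, 2, 1 and 3 without EGFP-positive replicates 1, 2 and 3, and 1 without each of the EGFP-negative replicates. Calls over all genes moved too. With all libraries 160 genes were called higher, against 405 without mCherry-positive replicate 1 and 707 without both libraries that stood apart. Without replicates 1, 2 and 3, the number was 172, 48 and 185 for mCherry-negative, 91, 35 and 76 for EGFP-positive and 34, 31 and 22 for EGFP-negative libraries. Cx3cr1 was called in all 12 fits that left out 1 library. DESeq2 called 19 and limma-voom 0.

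Between the reporter-negative fractions, mCherry-negative minus EGFP-negative, no member was called. The count was 0 higher and 0 lower of 36, where 2.67% and 1.29% of 18063 genes were called in these directions by edgeR's quasi-likelihood test. By this test 3 of the 36 members had an unadjusted p under 0.05, as did 3027 of the 18063 genes. DESeq2 and limma-voom called 0 as well. The smallest adjusted p was that of Tyrobp (2.01 ± 0.80 SE, adjusted p 0.213), which was at 3.52, 6.51 and 40.5 CPM in mCherry-negative and 5.88, 3.33 and 3.31 CPM in EGFP-negative libraries. The median log2 fold change was 0.29, and -0.26 without mCherry-negative replicate 3.

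Other genes of the same cells gave a mixed picture. Of 40 further microglia genes, 26 were tested in the EGFP comparison and 6 fell, where 7.07% of all genes were called lower, among them Coro1a, an actin-binding protein of leukocytes (-1.07 ± 0.15 SE), and Ncf4, a cytosolic oxidase subunit (-5.02 ± 0.92 SE), while 3 rose, a share near the 8.99% of all genes called higher, among them Tlr2, a Toll-like receptor (1.86 ± 0.20 SE). With 1 read of Ncf4 in EGFP-positive and 41 reads in EGFP-negative libraries, its fitted size is uncertain. The median of the 26 was -0.87. In the mCherry comparison 38 were tested, where 0.541% of all genes were called higher, and Csf3r, the receptor of granulocyte colony-stimulating factor, rose, with 9.64, 1.39 and 1.43 CPM in mCherry-positive libraries, against 0, 0.0921 and 0 CPM in mCherry-negative libraries (6.76 ± 1.33 SE, adjusted p 0.0494 by edgeR's quasi-likelihood test). Its 3 reads in mCherry-negative libraries leave the fitted size uncertain, and the call was lost without any 1 of the 6 libraries (adjusted p 0.0672 to 0.160, with 5.16 ± 1.41 SE and adjusted p 0.115 without mCherry-positive replicate 1). Of the further border macrophage genes, Ms4a7 fell in the EGFP comparison (-1.75 ± 0.40 SE). Of 21 activation and phagocyte state genes 15 were tested there, and 5 rose and 5 fell, where 8.99% and 7.07% of all genes were called in these directions. Spp1, secreted by activated microglia and other cells, fell (-1.98 ± 0.23 SE), and the lipase Lpl (1.25 ± 0.18 SE) and the receptor tyrosine kinase Axl (0.92 ± 0.14 SE) rose.

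Of 9 ligands of microglial receptors, made mostly by other cells, all were tested and 4 rose in EGFP-positive cells, Csf1 among them, where 8.99% of all genes were called higher. Csf1, a ligand of Csf1r that was picked after its values were seen, was at 149 ± 26.3 CPM in EGFP-positive and 81.4 ± 7.51 CPM in EGFP-negative cells (SD, n = 3; log2 fold change 0.98 ± 0.15 SE). The apolipoproteins Clu and Apoe rose by the same 0.87 (SE 0.08 and 0.14), and Tgfb2 by 1.01 ± 0.13 (SE). Il34, the other ligand of Csf1r, was not called (-1.15 ± 0.46 SE). In the EGFP sort the receptor Csf1r was lower and its ligand Csf1 higher in the same libraries.

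Markers of other cell types also differed between the groups, some in the direction of the members and some in the other. In EGFP-positive cells 9 of 10 oligodendrocyte genes, 6 of 7 oligodendrocyte precursor genes and 7 of 10 neuronal genes also fell, and 8 of 10 astrocyte genes rose while 1 fell, where 7.07% of all genes were called lower and 8.99% higher. Of the tested genes, 4 of 8 pituitary genes fell, 5 of 10 mural and fibroblast genes fell while 3 rose, and 5 of 7 ependymal genes rose. Summed oligodendrocyte markers were at 1276 to 1296 CPM in EGFP-positive and 4396 to 4528 CPM in EGFP-negative libraries. Summed pituitary markers were at 66.3, 48.6 and 38.5 CPM in EGFP-positive and 471, 394 and 365 CPM in EGFP-negative libraries. Mural and fibroblast markers were at 176 to 194 CPM in EGFP-positive and 467 to 492 CPM in EGFP-negative libraries, and ependymal markers at 161, 158 and 145 CPM in EGFP-positive and 97.3, 88.0 and 84.9 CPM in EGFP-negative libraries. In the mCherry sort the summed astrocyte, ependymal and precursor markers did not overlap between groups. Astrocyte markers were at 13999, 10092 and 10675 CPM in mCherry-positive and 8599, 8956 and 5125 CPM in mCherry-negative libraries. Ependymal markers were at 117, 75.9 and 71.2 CPM in mCherry-positive and 57.6, 43.7 and 28.6 CPM in mCherry-negative libraries, and precursor markers at 1396, 1997 and 1502 CPM in mCherry-positive and 2902, 2356 and 2701 CPM in mCherry-negative libraries. The astrocyte gene Gfap (1.45 ± 0.21 SE) and the ependymal gene Cfap65 (2.53 ± 0.47 SE) rose there. Marker transcripts of blood cells other than macrophages were at low levels. Summed over their lists, 10 monocyte and neutrophil genes reached at most 1.10 CPM, 12 lymphocyte genes 1.27 CPM, 5 mast cell genes 0.123 CPM and 6 erythroid genes 1.37 CPM in any library, with Ccr2 at 0 reads in every group but EGFP-negative. Endothelial genes summed to at most 4.99 CPM. The part that these cell types had in the members' levels was not tested.

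Beyond the listed genes, several followed the members' sum most closely within groups, by Pearson's r over 12 libraries between deviations from the group means. Among the closest were Ccrl2 (0.97), Selplg (0.97), Ms4a7 (0.97), Il1a (0.97), Anxa3 (0.96), Arhgdib (0.96), Ctsd (0.96), Gpnmb (0.96) and Ncf4 (0.96). Of them Selplg, Ms4a7, Il1a, Arhgdib, Gpnmb and Ncf4 belong to the further microglia, border macrophage and activation lists. These libraries share the 2 that stood apart, mCherry-positive replicate 1 was the highest library for each gene named here, and the r values are given as a description only. Among the 32 members with a mean of at least 1 CPM, Cd52 (0.99), C1qa (0.98) and C1qc (0.97) were closest to the sum of the others, and Sall1 (0.31), P2ry13 (0.53) and Cd14 (0.58) least close.

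Some members share sequence or position with other genes, which limits their counts. Gpr34 lies wholly inside Cask, a gene on the opposite strand that fell in EGFP-positive cells (-0.75 ± 0.12 SE). Irf8 and Cyba lie inside the span of the predicted gene Gm20388, which had no read. Exons of Hmgxb3 cover 15.1% of the exonic bases of Csf1r, and Hmgxb3 was at 41.8 CPM in EGFP-positive and 42.0 CPM in EGFP-negative cells. Of near copies, Lyz1, a neighbour of Lyz2, had 30 reads in all libraries, and Fcgr2b and Fcgr4, relatives of Fcgr3, had 474 and 48.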

How the data were processed

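RNA-seq counts of 12 libraries, 3 in each of 4 sorted groups, were analysed. Counts are whole reads per Ensembl gene, deposited by the authors with no normalization. Per the submitters' processing notes, cutadapt 1.8, STAR 2.5.2b and HTSeq 0.6.1 were used with GRCm38, while the annotation release, the strand and other settings are not given in the sources used here. In each file 5 summary entries name no gene. They held 31.4% to 38.2% of counted reads and were left out of library sizes. Per the labels' protocols, cDNA was made with SMART-Seq v4 and 11 cycles of PCR.

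R 4.3.3 with edgeR 4.0.16 was used for the tests (library sizes scaled by TMM, filterByExpr with a minimum count of 10 and total of 15, quasi-likelihood test, Benjamini-Hochberg adjustment over all genes tested, threshold 0.05). Each sort was fitted on its own 6 libraries, and comparisons between sorts in 1 fit of 12. Levels are plain CPM. An exact permutation test of 3 against 3 libraries cannot go below p = 0.1 and was not used. Alternatives were DESeq2 1.42.0, limma 3.58.1 (voom), other scalings and filters, a replicate block, and leaving out libraries.

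The members, lists and tests were chosen with earlier results of these data known. Values per library are given for up to 3 members of each role with the most reads per kilobase and up to 8 members per comparison with the smallest adjusted p. Other lists are given by counts and up to 3 called genes, and genes named outside these rules were chosen after their values were seen. Members of the same role as named examples, and genes that overlap a member, are among them. Results for some genes of the other lists are not reported here.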

Additional observations from a re-analysis of the deposited data

Results flagged for a closer look

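For 10 members the mCherry effect and the EGFP effect differed by edgeR's quasi-likelihood test of the difference itself, in 1 fit of all 12 libraries with Benjamini-Hochberg adjustment over 18063 genes. The log2 difference, mCherry effect minus EGFP effect, was 8.68 for the chemokine receptor Cx3cr1, 7.61 for the growth factor receptor Csf1r and 5.52 for Tmem119. It was 5.52 for the IgG receptor Fcgr3, 9.33 for the pore-forming Mpeg1, 9.09 for the oxidase subunit Cybb and 4.71 for the lysosomal Laptm5. It was 10.20 for Itgam and 5.70 for Itgb2, which form an integrin together, and 6.24 for the tetraspanin Cd53. The fitted sizes of Mpeg1, Cybb and Itgam rest on 2, 4 and 3 reads in EGFP-positive libraries and are uncertain. The sizes rest in part on mCherry-positive replicate 1. Without it they were 6.85 for Cx3cr1, 4.82 for Csf1r, 4.10 for Tmem119, 6.81 for Mpeg1, 5.60 for Cybb, 2.78 for Laptm5, 3.98 for Itgb2 and 3.87 for Cd53. Fcgr3 (4.07, adjusted p 0.0572) and Itgam (7.28, adjusted p 0.0778) were then no longer called.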

How the results depend on the processing

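No called member changed direction under any alternative run. The mCherry comparison called 0 members higher, but 10 with no filter, 1 with a stricter filter, 5 with DESeq2, 1 with the replicate block, 7 in 1 fit of 12 libraries and 1 without both libraries that stood apart. Of all genes tested, 94 of 17369 were called higher in the main mCherry fit. In the other runs, in the same order, it was 485 of 27715, 183 of 13948, 885 of 17369, 188 of 17369, 883 of 18063 and 239 of 17788. The EGFP comparison called 2 higher, but 1 with plain library sizes, 0 in the fit of 12, and 1 to 3 with 1 library left out. It called 20 lower, but 12 with the stricter filter and 4 in the fit of 12, and 16 to 22 with 1 library left out. Of all genes tested, 16.1% were called in either direction in the main EGFP fit, 17.2% with plain library sizes and 19.7% with the stricter filter. The share was 4.43% in the fit of 12 and 6.72% to 30.9% with 1 library left out. The difference between sorts was called for 10, but for 27 with no filter, 19 with DESeq2, 0 with limma-voom, 3 with the replicate block, 22 without both libraries that stood apart, and 1 to 17 with 1 library left out. Of all genes, the difference was called for 1.44% in the main fit and 0.143% to 3.15% with 1 library left out. In the other runs, in the same order, the share was 2.27%, 4.93%, 1.08%, 1.62% and 5.98%. The comparison of negative fractions called 0 higher, and 1 with no filter. The cause of these changes was not tested.

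With 1 library left out, the log2 ratio of the summed level in the mCherry sort ranged between -0.20 and 2.24 and the median log2 fold change between 0.017 and 2.63. In the EGFP sort the median ranged between -2.89 and -2.51, and the log2 ratio of the sum was -0.56 with TMM scaling and -0.52 without the C1q genes. The labels do not say what same-numbered samples share. Their deviations correlated at 0.17, -0.03 and 0.08 in the mCherry sort and at 0.26, 0.01 and 0.15 in the EGFP sort, not over 0.1 for every pair, so the replicate block was kept as an alternative. Depth limits the members with under 100 reads a group, whose fold changes are uncertain.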
